A study of Homo sapiens with 2 samples.

Results

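Messenger RNA levels of 10 genes for actin-binding proteins were compared between cells that overexpressed the microRNA miR-203 and cells with an empty vector. The genes were those of 5 coronins (CORO1A, CORO1B, CORO1C, CORO2A and CORO2B), the 3 plastins (LCP1, PLS1 and PLS3) and the LIM-domain proteins LASP1 and LIMA1. They are 10 of the 19775 genes with at least 1 probe set annotated to a single symbol, and they were chosen by protein family and function, with their differences between these same arrays already known. The values below therefore describe the chosen genes and are not independent evidence about them.

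Both samples were stable derivatives of MDA-MB-231, an established human breast cancer line with mesenchymal features that lacks the hormone receptors and ERBB2 amplification. One had received an empty control virus and the other a virus for miR-203, and both were grown in the same serum-containing medium. Each was hybridised to 1 Affymetrix array, so there was no replicate, no test and no p-value. Effects of miR-203 cannot be told apart from those of separate culture, extraction or hybridisation. Nothing in the labels says whether each line was 1 clone or a pool. All levels are log2 expression values made with RMA, and each difference is the miR-203 value minus the empty-vector value.

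Coronins are WD-repeat proteins that bind actin filaments and work with the Arp2/3 complex, which starts filament branches, and with cofilin, which cuts old filaments. Plastins tie parallel filaments into tight bundles, as in microvilli and the leading edge. LASP1 carries a LIM domain, nebulin repeats and an SH3 domain and sits at focal adhesions and membrane ruffles, and LIMA1 (EPLIN) crosslinks filaments and slows their branching and disassembly. Actin-binding proteins of these kinds can shape how a cell spreads and moves, and LASP1 has been published as a direct target of miR-203.

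The microRNA is shown because it is what the lines were made to differ in. Its gene in the RefSeq table (GRCh38.p14) is MIR203A, whose hairpin lies on the plus strand at chr14:104117405-104117514 and is 110 bases long. A microRNA pairs with its targets mainly through its seed, bases 2 to 8 from the 5′ end, which is in capitals in the mature forms. In the hairpin the capitals mark the stretches that become the mature forms.
hsa-miR-203a-3p: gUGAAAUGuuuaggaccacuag
hsa-miR-203a-5p: aGUGGUUCuuaacaguucaacaguu
MIR203A hairpin: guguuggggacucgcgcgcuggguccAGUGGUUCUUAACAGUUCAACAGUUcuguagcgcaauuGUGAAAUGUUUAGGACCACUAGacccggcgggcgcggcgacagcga
The 3p form is the one usually meant by miR-203, although the labels name no arm and do not give the insert of the virus. A perfect target of its seed reads CAUUUCA in an mRNA. Of the 2370 mature human microRNA names in the table, 1 had the 3p seed, miR-203a-3p itself, so no other listed microRNA shares those 7 bases. Target sites in the mRNAs of the 10 genes were not analysed here.

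The arrays had a correlation of 0.996 over 54675 probe sets, and over the 13311 genes kept by the filter the differences had an SD of 0.22 around a median of 0.013. A gene passed when the higher of its values reached 5.37, the median level of all probe sets. All 10 genes passed, as did 14 of their 15 probe sets. The mesenchymal markers of the parental line were high on both arrays, with VIM at 13.90 and 13.89 and AXL at 12.90 and 12.86, while the progesterone receptor gene PGR and the E-cadherin gene CDH1 lay under the filter level on both. EPCAM and ERBB2 were measurable, at 8.35 and 8.58 in the empty-vector line. ESR1, the oestrogen receptor gene, was at 6.27 there.

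Of the 10 genes, 3 were at least 1.5-fold lower in the miR-203 line, namely LCP1, CORO2B and LASP1. LCP1 and CORO2B were also past 2-fold (2 of 10). None of the 10 was at least 1.5-fold higher (0 of 10). Over all genes that passed the filter, 1.08% were 1.5-fold lower and 0.270% were 2-fold lower, and 0.721% were 1.5-fold higher and 0.105% were 2-fold higher. Because the genes were chosen with these values known, nothing is read from their larger share. The median difference of the 10 was -0.049, against 0.013 for all genes, with 6 below 0 and 4 above. The low values belonged to single members of each family, and their relatives lay close to 0 or above it.

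**Figure D1:**
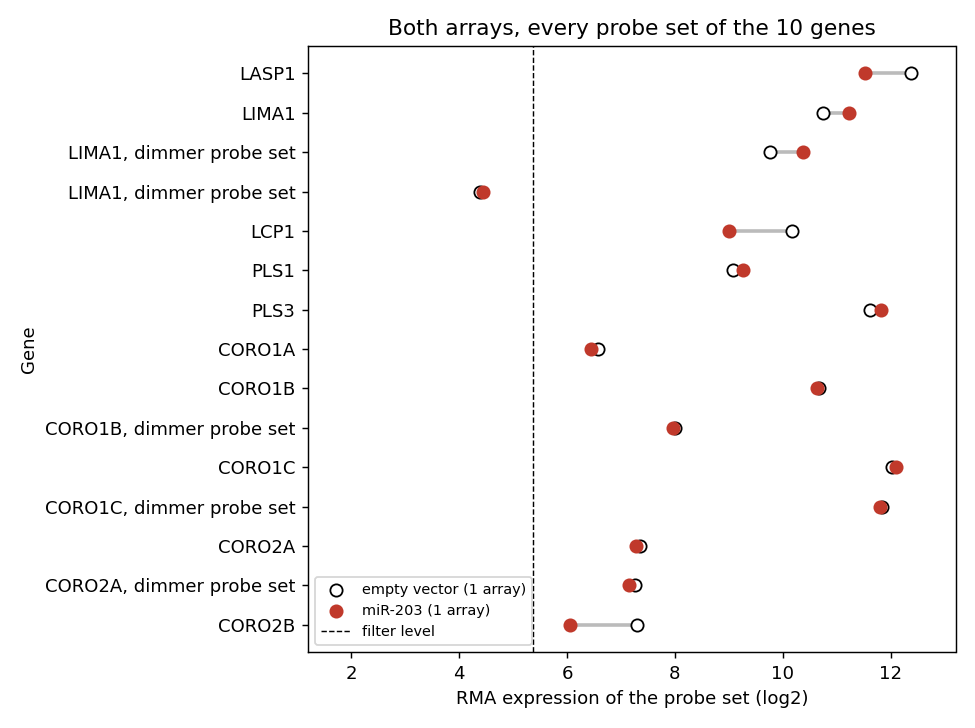
RMA expression (log2, horizontal axis) of each of the 15 probe sets of the 10 genes, with open circles for the empty-vector array and filled circles for the miR-203 array. LASP1, LCP1 and CORO2B have filled circles well to the left of the open ones, LIMA1 has them to the right by its 2 brighter probe sets, and the circles of the other genes nearly touch. The dashed line is the filter level, and levels of different probe sets cannot be set against each other.

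LASP1 was read by 1 probe set, with log2 levels of 12.37 (empty vector) and 11.52 (miR-203). The difference of -0.85 is a 1.81-fold lower signal, so that 55.3% of the empty-vector signal was left. This lay just outside the 2-fold threshold, while LCP1, at -1.17, lay just inside it. Among the 500 genes nearest to LASP1 in mean level, the middle 95% of differences spanned -0.21 to 0.34, and 0 of the 500 were as low. Bright genes differed little between these arrays: of the 438 genes brighter than LASP1, 1 was 1.5-fold lower, 0 were 2-fold lower and 0 were as low as LASP1. Ranked over all 13311 genes by difference alone, without regard to level, LASP1 was the 52nd from the lowest.

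LIMA1, the other LIM-domain protein here, lay on the opposite side. Its brightest probe set went from 10.74 to 11.22, a difference of 0.48 or 1.39-fold, and its second from 9.77 to 10.37, a difference of 0.61 or 1.52-fold. The third, at 4.38 and 4.44, was under the filter level on both arrays and differed by 0.059. By its brightest probe set LIMA1 was therefore just outside the 1.5-fold threshold, and by its second just inside. Genes nearest to it in level spanned -0.31 to 0.39 in their middle 95%, and 7 of the 500 were as high as LIMA1. All 3 probe sets have names ending in _s_at, which marks probes that can match more than 1 transcript, so no value of LIMA1 is free of that limit.

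The plastins were split about as widely as LASP1 and LIMA1 (1.33 on the log2 scale) or the 5 coronins (1.31). LCP1 (L-plastin), the form of white blood cells that many carcinoma lines also make, had log2 levels of 10.18 with the empty vector and 9.01 with miR-203. The difference of -1.17 is 2.25-fold lower, with 44.5% of the signal left, by its 1 probe set. The middle 95% of the 500 genes nearest in level ran from -0.28 to 0.43, and 0 of them were as low as LCP1. Of the 3168 genes brighter than LCP1, 1 was past 2-fold lower and 0 were as low as LCP1. In rank over all genes LCP1 was the 21st from the lowest.

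PLS3 (T-plastin), the form of most solid tissues, was at 11.61 and 11.81, a difference of 0.20. PLS1 (I-plastin), the form of intestinal microvilli and of hair cells of the inner ear, was at 9.08 and 9.26, a difference of 0.18. Both lay within the middle 95% of genes of similar level, which ran from -0.26 to 0.35 around PLS3 and from -0.34 to 0.44 around PLS1. The lower value was thus seen in 1 of the 3 plastins, and the differences of the family spanned 1.37 on the log2 scale. Each plastin was read by a single probe set.

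**Figure D2:**
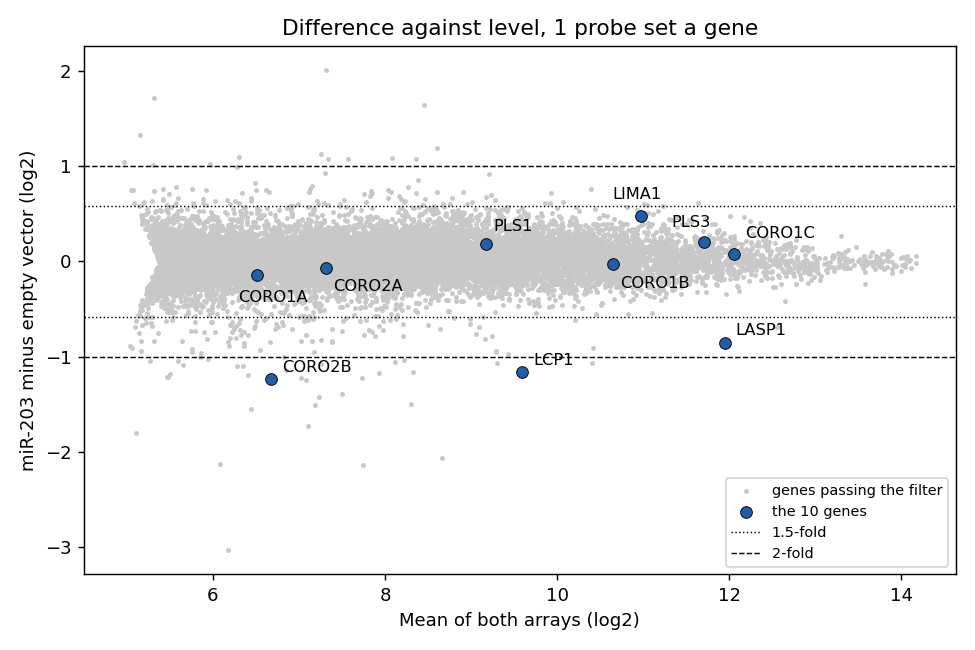
Difference between the arrays (miR-203 minus empty vector, log2) against the mean of both (log2), 1 probe set for each of the 13311 genes that passed the filter. The grey cloud narrows toward bright genes, where LASP1 at -0.85 and LCP1 at -1.17 lie below it. CORO2B, at -1.24, is the lowest of the 10 genes and lies below the 500 genes nearest to it in level. LIMA1, at 0.48, lies above the middle 95% of genes of its level. The other coronins, PLS1 and PLS3 lie inside the cloud. Dotted and dashed lines mark 1.5-fold and 2-fold.

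Type I coronins differed little. CORO1B and CORO1C, the forms found in most cell types at the leading edge, were bright. CORO1B was at 10.67 and 10.64, a difference of -0.032, and its dimmer probe set gave -0.038. CORO1C was at 12.02 and 12.10, a difference of 0.078, and its other probe set gave -0.031, so its sign was not settled. CORO1A, the coronin of blood cells, was at 6.58 and 6.44, which is -0.14, and its neighbours in level spanned -0.50 to 0.46. All 3 lay inside the range of genes of their own level.

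Of the type II coronins, CORO2B was lower and CORO2A was nearly equal between the arrays. CORO2B, best known from the nervous system, had log2 levels of 7.29 with the empty vector and 6.06 with miR-203, both above the filter level. The difference of -1.24 is 2.35-fold lower and left 42.5% of the signal, by 1 probe set. This was the lowest difference of the 10 genes, the 13th from the lowest over all genes, and below all 500 genes nearest in level, whose middle 95% ran from -0.39 to 0.41. CORO2A was at 7.35 and 7.28, a difference of -0.065, against -0.10 by its dimmer probe set. CORO2B and CORO2A were thus split by 1.17, and the 5 coronins by 1.31.

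CORO2B had the dimmest probe set of the 3 lower genes, in a range where differences spread more widely than around LASP1 or LCP1. Of the 9529 genes brighter than CORO2B, 20 were 2-fold lower and 8 were lower than CORO2B itself. For LASP1 and LCP1 the number of brighter genes that were as low was 0, but out of only 438 and 3168. The counts therefore do not rank the 3 genes by how unusual they are.

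**Figure D3:**
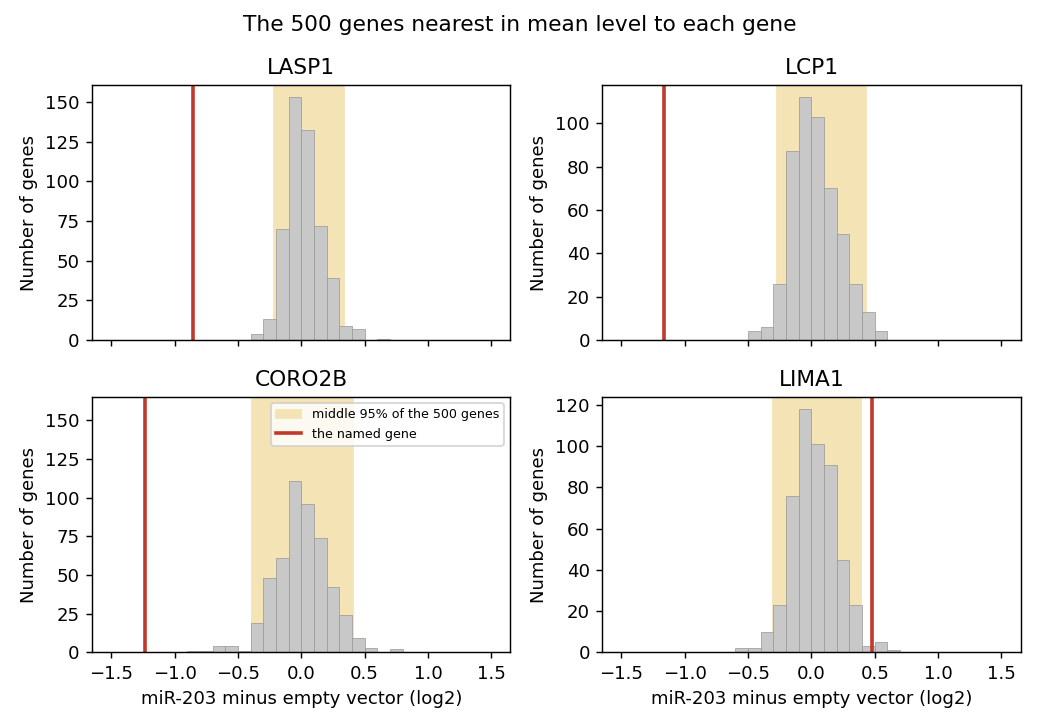
Number of genes (vertical axis) by their difference between the arrays (log2, horizontal axis, bars of 0.1) among the 500 genes nearest in mean level to LASP1, LCP1, CORO2B and LIMA1. Shading marks the middle 95% and the red line the named gene, which stands left of every bar for LASP1, LCP1 and CORO2B and at the right edge for LIMA1, where 7 genes were as high. The spread is that between genes on these 2 arrays and does not replace replicates.

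LCP1 and CORO1A are also genes of blood cells, so the other genes of those cells were read. Of 9 blood markers with a probe set of their own symbol, 5 passed the filter, and the levels of the 9 ran from 3.65 to 7.54 with the empty vector and from 3.90 to 7.69 with miR-203. PTPRC (CD45), carried by nearly all white blood cells, was at 3.65 and 3.98, and SPI1, a factor of myeloid cells, at 3.88 and 3.90, all under the filter level. CD3E, CD3D, CD79A, CD14 and HBB had negative differences, from -0.24 to -0.082, and PTPRC, ITGAM, ITGB2 and SPI1 positive ones, from 0.021 to 0.34, several of them between values under the filter level. The summed linear signal of the 9 was 539 and 550, to which ITGB2, at 7.54 and 7.69, added the most, so the sum says little about the others. The part of blood cells in the values of LCP1 was not tested.

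The genes whose pair of log2 values lay nearest to that of LCP1 were HBEGF, a growth factor of the EGF family, at 9.91 and 8.94, KRT19, a keratin, at 9.84 and 8.77, and FGF13 at 9.77 and 8.82. Those nearest to CORO2B were RBPMS2, an RNA-binding protein, at 7.42 and 6.28, RIPOR3 at 7.32 and 6.32, and CYRIA, which binds RAC1 and restrains the WAVE complex, at 7.08 and 6.23. The genes nearest to LASP1 were PRDX3, a mitochondrial peroxidase, at 12.13 and 11.79, COTL1, an actin-binding protein, at 11.98 and 11.73, and HMGA1, a chromatin protein, at 12.27 and 11.96, and their differences of -0.34, -0.25 and -0.31 were smaller than that of LASP1. Levels of different probe sets cannot be set against each other, and there were 2 arrays, so nearness here names genes read at similar signal and shows no likeness in mRNA level.

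The machinery around these proteins was read through 68 genes in 8 lists. Of these 68 other actin cytoskeleton genes, 59 had a probe set of their own symbol and 57 passed the filter. By their brightest probe sets the 57 had a median difference of -0.016 against 0.013 for all genes, 31 below 0 and 26 above. None was 1.5-fold lower (0 of 57) and 1 was 1.5-fold higher, counts near the 1.08% and 0.721% of all genes, so they set these genes apart in no way. That gene was MYL9, the regulatory light chain of smooth muscle and non-muscle myosin II, which went from 8.13 to 8.78, a difference of 0.65, while its other probe set gave 0.28.

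The Arp2/3 complex and its activators, with which coronins work, had a median of -0.024 over 12 genes. By their brightest probe sets 8 were below 0 and 4 above. Probe sets of WASL, WASF2, ARPC5L and CTTN lay on both sides of 0, so the signs of these genes were not settled. ARPC1B and ARPC3, subunits of the complex, were the farthest out, at -0.22 and -0.20. The cofilin module had a median of 0.049 over 8 genes, with LIMK1, a kinase that inactivates cofilin, at 0.23 by its brightest of 3 probe sets and -0.037 by its lowest. DSTN, a relative of cofilin, was at 0.16. The remaining coronins CORO6 and CORO7 were at -0.019 and 0.13. None of these genes reached 1.5-fold in either direction.

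Relatives and focal adhesion partners of LASP1 had a median of -0.071 over 10 genes, 7 below 0 and 3 above by their brightest probe sets. Of those above 0, ENAH had probe sets from -0.34 to 0.30 and ABLIM1 from -0.27 to 0.014, so their signs were not settled. Probe sets of PALLD were all above 0, from 0.055 to 0.20. EVL, of the Ena/VASP family that lengthens filaments, had probe sets at -0.40 and -0.12. CSRP2, another LIM-domain protein, was at -0.35 and -0.29. NEBL, the nearest relative of LASP1 measured here, was at 5.65 and 5.63, close to the filter level, and ZYX (zyxin), which binds LASP1 at focal adhesions, at 8.71 and 8.61. The difference of LASP1 was larger than that of any of these 10 genes.

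Other bundlers and crosslinkers, the functional neighbours of the plastins, had a median of 0.041 over 7 genes. FSCN1 (fascin), which bundles filaments in filopodia, was at -0.071, and the alpha-actinins ACTN1 and ACTN4 were at 0.0045 and 0.041. MARCKS was the farthest out at 0.40, with 5 probe sets from 0.056 to 0.42, and ESPN (espin) was at 0.20. Actins, tropomyosins and myosin genes had a median of 0.091 over 7 genes, with TPM1 at 0.33 by its brightest of 5 probe sets that ran from -0.068 to 0.53. ACTB itself was at 14.08 and 14.01, a difference of -0.062. Capping and severing genes had a median of 0.019 over 8 genes, with CAPZA1 at 0.30 and TWF2 at -0.24. The 3 membrane linkers were all below 0 by their brightest probe sets, MSN (moesin) at -0.27, EZR (ezrin) at -0.089 and RDX (radixin) at -0.056. Probe sets of EZR ran from -0.44 to 0.17 and those of RDX from -0.49 to 0.11, so the signs of EZR and RDX were not settled.

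**Figure D4:**
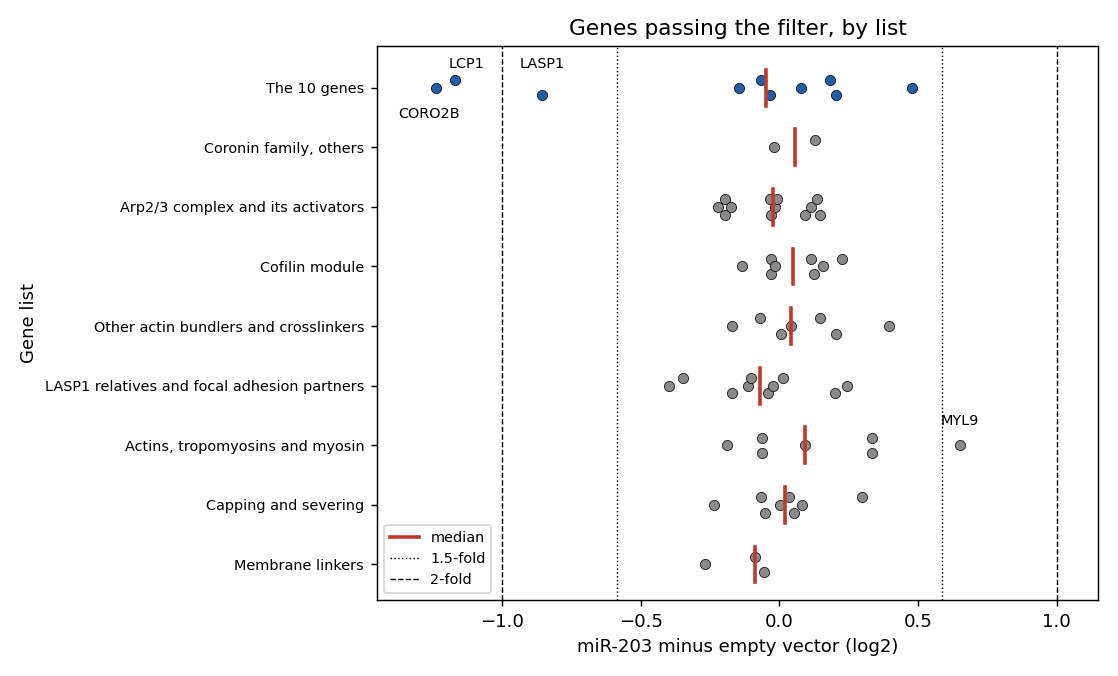
Difference between the arrays (miR-203 minus empty vector, log2) of each gene that passed the filter, with the 10 genes in the top row, the 8 other actin lists under it and a red bar for each median. LCP1, CORO2B and LASP1 are the points left of the 1.5-fold line and MYL9 the point right of it, and the medians of the other lists run from -0.089 to 0.091.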

How the data were processed

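Expression was measured in 2 lines with 1 Affymetrix array each. The deposited values are log2 expression per probe set, made by the authors with RMA per the submitters' processing notes (no version given). Their range, 1.46 to 14.18 and 1.37 to 14.23, fits a log2 scale. RMA forces arrays to nearly 1 distribution, which hides any change common to all mRNAs. RMA gives no detection calls, and the number of arrays limits the precision.

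Probe sets were named from the platform annotation, 41091 with exactly 1 symbol. Each gene took the probe set with the highest mean, and passed if its higher value reached the median mean of all probe sets. Calls were at 1.5-fold and 2-fold, with Python 3.11.15, pandas 2.3.3 and statsmodels 0.14.6 (loess). The 1.5-fold call was not tried on simulated data. The 2-fold call was, with planted differences larger than those of any of the 10 genes, so the trial does not bear on their calls. The genes, lists and naming rules were chosen with earlier results of these data known: all 10 genes, up to 2 genes with the largest differences of each list, and the 3 nearest genes to each member past 1.5-fold. Other genes of the lists and markers were named after their values were seen. MicroRNA sequences are from RefSeq. Alternatives covered the filter, the choice and kind of probe sets, a loess trend (span 0.3), centring and raising low values.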

Additional observations from a re-analysis of the deposited data

How the results depend on the processing

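No paired analysis was possible because each line had 1 array, and no replicate could be left out. Of 8 alternatives, the filter at the 75th percentile left 7 of the 10 genes and took out CORO2B, CORO2A and CORO1A. The count at least 2-fold lower was then 1 of 7, against 20 of 8338 for all genes. The count at least 1.5-fold lower was 2 of 7, against 64 of 8338. The median of the members was 0.078, because fewer genes entered. All other counts of members past 1.5-fold and 2-fold were the same under every alternative run. LASP1 stayed between -0.87 and -0.85, LCP1 between -1.20 and -1.17, and CORO2B between -1.25 and -1.23 where it had a value. LIMA1 ran from 0.38 to 0.54 and had no value without _x_at and _s_at probe sets, where CORO1C went to -0.031 from 0.078. LASP1, LCP1 and CORO2B each rest on 1 probe set, so no second probe set bears on them. The filter and probe set alternatives could therefore only keep or drop their values, and raising low values did not reach them. Only the loess trend and centring shifted them, so their narrow ranges say little about how firm the values are.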

Other observations

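Genes that lie next to LASP1, LCP1 and CORO2B on their chromosomes were read after the values of those 3 were known, taking the 5 nearest protein-coding genes on each side in the RefSeq order. Around LASP1, 5 of 10 passed the filter, with differences from -0.13 to 0.17, and PSMB3, a proteasome subunit, was at 12.49 and 12.37. Around LCP1, 4 of 10 passed, from -0.095 to 0.16, with ESD, an esterase, at 11.43 and 11.58 and ZC3H13, a member of the m6A writer complex, at 9.11 and 9.11. Around CORO2B, 7 of 10 passed, from -0.21 to 0.18, with ANP32A at 11.15 and 10.94. None of these 16 neighbours reached 1.5-fold in either direction (0 of 16), where 1.08% of all genes were 1.5-fold lower and 0.721% higher, so that few or none would be past it among any 16 genes.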
